A study of Mus musculus with 81 samples.

Results

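The 9 genes described here mark thymocyte stages or carry out receptor recombination, and were followed through thymic lymphomas of the mouse. They were taken by symbol from a list chosen for this topic, and all 9 of 9 were found among the 51826 genes of the count table. Counts were summed over the biopsies of a tumour, so that 1 value stands for 1 mouse. Levels are CPM, read counts scaled to a common library total, after TMM scaling, an edgeR step that evens out library composition.

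RNA was sequenced in 81 libraries from 40 mice of the strain C57BL/6 x 129S4Sv/Jae. All animals carried Plk4(Col1a1), rtTA(Rosa) and centrin-GFP(Rosa), that is, a doxycycline-driven copy of the centriole kinase Plk4, its transactivator and a centriole reporter. Thymic lymphomas came from untreated p53-/- mice (10 mice, 23 libraries), from p53-/- mice given doxycycline (9 mice, 18 libraries) and from p53+/- mice given doxycycline (12 mice, 31 libraries). Doxycycline was given for 2 weeks, starting at 30 days of age, and "treated" below means this. Normal thymus came from 8 p53+/+ mice without treatment and from 1 p53+/- mouse, which entered no comparison. Untreated p53+/- lymphomas were not analysed here, so the effects of p53 dosage and doxycycline cannot be told apart between untreated p53-/- and treated p53+/- tumours. In 13 tumours 4 or 5 regions were sampled (54 libraries), and 18 tumours gave 1 biopsy each. Library totals ran from 1030429 to 26871781 counts, with a median of 15027223. PCR reads without molecular identifiers are not independent molecules, so limits from counts cover counting error only. The labels give no batch. Male mice made up 9 of 10 untreated p53-/- and 3 of 12 treated p53+/- tumours, so labelled sex entered every main fit.

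Developing T cells assemble their antigen receptors by cutting and rejoining gene segments. RAG1 and RAG2, encoded by neighbouring genes, form the recombinase that makes the cuts, and terminal deoxynucleotidyl transferase, encoded by Dntt, adds untemplated bases at the joins. Early thymocytes pass through stages read from surface proteins, among them KIT, CD44, CD25 (encoded by Il2ra), the IL-7 receptor and CD24, before rearranging cells express both coreceptors and then mature. The recombinase is switched on in waves at the early and double-positive stages and is off in mature T cells.

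The RAG genes and Il2ra and Cd44 lie on chromosome 2, so 4 of the 9 genes share a chromosome. Rag1 (ENSMUSG00000061311) occupies chr2:101638282-101649501 on the minus strand and Rag2 (ENSMUSG00000032864) chr2:101624718-101632529 on the plus strand of GRCm38. B230118H07Rik, a protein-coding gene on the minus strand, overlaps both. Whether the counting used strand is not given in the sources used here, so reads shared by Rag2 and this gene may not have been separated. Il2ra overlaps Gm37881 and Cd44 overlaps Gm23731. Dntt (ENSMUSG00000025014) lies at chr19:41029275-41059525, Il2ra (ENSMUSG00000026770) at chr2:11642807-11693193, Kit (ENSMUSG00000005672) at chr5:75574916-75656722 and Cd44 (ENSMUSG00000005087) at chr2:102811141-102901665. Cd24a (ENSMUSG00000047139) lies at chr10:43578284-43584265, Cd28 (ENSMUSG00000026012) at chr1:60716800-60773359 and Il7r (ENSMUSG00000003882) at chr15:9505788-9530176.

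Promoter windows of 300 bases (250 before and 50 after the start site) were available from RefSeq (GRCm38.p6) for 7 of the 9 genes. Those of Rag1, Rag2 and Dntt are shown because these 3 genes moved together between tumours, and that of Il7r because it moved the opposite way. Capitals mark E-boxes (CANNTG), the hexamer read by basic helix-loop-helix proteins such as the E proteins of lymphocytes, searched on both strands.
Rag1 (chr2:101649483-101649782, minus strand): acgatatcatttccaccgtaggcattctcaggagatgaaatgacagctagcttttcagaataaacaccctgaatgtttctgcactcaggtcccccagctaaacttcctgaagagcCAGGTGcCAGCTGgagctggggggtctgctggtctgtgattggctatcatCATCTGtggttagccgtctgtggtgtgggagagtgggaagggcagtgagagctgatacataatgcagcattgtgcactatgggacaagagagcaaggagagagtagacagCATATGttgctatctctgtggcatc
Rag2 (chr2:101624462-101624761, plus strand): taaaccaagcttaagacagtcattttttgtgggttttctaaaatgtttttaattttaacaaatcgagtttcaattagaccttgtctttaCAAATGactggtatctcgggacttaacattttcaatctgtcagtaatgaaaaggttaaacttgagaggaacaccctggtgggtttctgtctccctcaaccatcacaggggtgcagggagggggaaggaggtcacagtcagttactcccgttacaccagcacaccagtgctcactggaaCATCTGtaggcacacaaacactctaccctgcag
Dntt (chr19:41029025-41029324, plus strand): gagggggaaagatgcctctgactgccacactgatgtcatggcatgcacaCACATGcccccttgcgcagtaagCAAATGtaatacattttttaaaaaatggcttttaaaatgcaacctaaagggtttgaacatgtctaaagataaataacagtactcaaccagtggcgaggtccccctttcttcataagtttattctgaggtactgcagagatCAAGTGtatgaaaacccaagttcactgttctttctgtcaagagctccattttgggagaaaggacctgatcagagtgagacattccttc
Il7r (chr15:9529827-9530126, minus strand): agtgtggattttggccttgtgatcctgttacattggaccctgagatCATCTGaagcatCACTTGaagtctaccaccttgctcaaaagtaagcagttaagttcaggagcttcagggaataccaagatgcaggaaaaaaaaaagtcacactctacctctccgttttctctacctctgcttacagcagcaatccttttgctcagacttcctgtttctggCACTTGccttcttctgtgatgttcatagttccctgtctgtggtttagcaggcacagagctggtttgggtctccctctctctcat
The Rag1 window holds 4 E-boxes, 1 of them in the CAGGTG form that E proteins bind, and 2 copies of TGTGGT, the core letters of a RUNX site. The Rag2 window holds 2 E-boxes and the Dntt window 3, plus 1 AGATAA, the letters of a GATA site. The Il7r window holds 3 E-boxes, 1 TGTGGT and 1 TTCNNNGAA, the palindrome read by STAT factors. Among 32851 RefSeq windows of this length, 72.3% hold CANNTG, 20.2% CAGGTG, 16.8% TGTGGT, 11.2% AGATAA and 8.3% TTCNNNGAA. CAGGTG is itself a CANNTG, and these matches are descriptions of letters.

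Several libraries stood apart. Tumour 881, an untreated p53-/- lymphoma, goes against a T-lineage identity: Cd3e, a chain of the T-cell receptor complex, was at 1.81 CPM, and Cd79a, a chain of the B-cell receptor complex, at 865 CPM. Its summed level over 8 B-lineage markers was 4358 CPM, against at most 395 CPM in the other lymphomas, and its 6 T-lineage markers summed to 305 CPM against a lymphoma median of 2676 CPM. Normal thymus of mouse 387 had 1272 CPM of B-lineage markers (93.1 to 121 CPM in the other p53+/+ normal thymuses), 3268 CPM over 3 fat markers and 579 CPM of T-lineage markers, the least of the normals. In 3 mice, sex-linked transcripts did not match the labelled sex, and fits without them are among the alternatives.

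Per kilobase of annotated exon, normal thymus expressed Dntt highest, with a group median of 487 CPM per kilobase, followed by Rag1 at 243, Cd24a at 83.7, Rag2 at 58.5 and Cd28 at 41.5. Il7r at 10, Il2ra at 8.16, Cd44 at 6.93 and Kit at 1.33 CPM per kilobase were lower. Across the 31 lymphomas the same scale gave medians of 134 for Dntt, 119 for Rag1, 106 for Cd24a and 19.9 for Cd28, with Rag2 at 15.1. The order at the top was thus kept, and Rag2 fell behind Cd28.

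The recombinase genes differed widely between tumours of 1 group. Rag1 measured 262 CPM at the lowest, 1606 at the median and 2162 at the highest in p53+/+ normal thymus. In untreated p53-/- lymphomas it ran from 0.331 through a median of 463 to 1973 CPM. In treated p53-/- lymphomas it ran from 846 through 1338 to 2419 CPM, and in treated p53+/- lymphomas from 31.1 through 721 to 2347 CPM. All 9 treated p53-/- tumours thus lay above the lowest normal thymus, while the other lymphoma groups reached far below it, and all groups overlapped. Of 31 lymphomas, 6 lay below every normal thymus, 2 above every one and 23 within the normal range. That range rests on mouse 387, the lowest normal at 262 CPM, since the others lay between 1411 and 2162 CPM. Without it, 8 of 10 untreated p53-/-, 5 of 9 treated p53-/- and 11 of 12 treated p53+/- tumours lay below every normal.

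Rag2, the partner subunit, measured 29.2, 200 and 232 CPM (lowest, median, highest) in normal thymus. The values were 0, 28.6 and 146 CPM in untreated p53-/-, 8.99, 108 and 159 CPM in treated p53-/-, and 0.0636, 40.8 and 127 CPM in treated p53+/- lymphomas. No tumour exceeded the highest normal thymus, and 9 of 31 fell below the lowest. Without mouse 387, 9 of 10, 5 of 9 and 10 of 12 tumours lay below every normal. Rag2 was not counted at all in tumour 202, where 0 counts allow a level of up to 0.0552 CPM (3 counts of the summed library, counting error only).

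Dntt measured 147, 1116 and 1461 CPM in normal thymus. It measured 0.386, 196 and 792 CPM in untreated p53-/-, 49.2, 424 and 1060 CPM in treated p53-/- and 110, 359 and 756 CPM in treated p53+/- lymphomas. Again no tumour exceeded the normals, and 9 of 31 lay below all of them. Without mouse 387, whose 147 CPM is the lowest normal value (522 CPM in the next), 22 of 31 did: 8 of 10 untreated p53-/-, 6 of 9 treated p53-/- and 8 of 12 treated p53+/- tumours. The 3 tumours with the least Dntt, 202, 120 and 881, were all untreated p53-/- lymphomas, at 0.386, 1.0 and 1.18 CPM.

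Against normal thymus, edgeR's quasi-likelihood test with Benjamini-Hochberg adjustment over 17843 genes found Rag2 and Dntt lower in untreated p53-/- lymphomas, and called none of the other 7 genes there. Rag2 fell by 2.23 on the log2 scale (SE 0.84, adjusted p = 0.0313) and Dntt fell by 2.01 (SE 0.80, adjusted p = 0.043). Rag1 gave -1.42 (SE 0.78, adjusted p = 0.146) and was not called. DESeq2 also called 2 members lower, and voom over the separate biopsies called 6 lower: Rag1 (-4.02, adjusted p = 0.000222), Rag2, Dntt, Il2ra (-2.7), Kit (-1.56) and Cd28 (-1.46). Of all genes tested in this contrast 40.7% were called, 23.2% higher and 17.5% lower, so 2 of 9, both lower, is below the share called in either direction and not far above the share called lower. Both calls were lost without the filter on low counts (adjusted p = 0.0682 for Rag2 and 0.0884 for Dntt) and in the single-biopsy tumours alone (0.118 and 0.0981). The Dntt call was also lost without the 3 mice of doubtful sex (0.0652) and when the low-count filter was set by the design matrix instead of by group (0.056). That filter was the one run first, and it was replaced after its results were seen. Both were still called without mouse 387 and without tumour 881.

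In treated p53-/- lymphomas 0 of 9 genes were called by edgeR, against 52.1% of all genes (25.4% higher, 26.7% lower). Their log2 fold changes against normal thymus were -0.20 for Rag1, -0.80 for Rag2 and -1.05 for Dntt (SE 0.80, 0.83 and 0.81). At an unadjusted p under 0.05 only Cd28 passed, with a log2 fold change of -1.03 (SE 0.50, adjusted p = 0.0829), and it was called once tumour 881 was left out of the fit (adjusted p = 0.0335). DESeq2 also called 0, and voom over the separate biopsies called 3 (Il2ra, Kit and Il7r, all lower).

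In treated p53+/- lymphomas 0 of 9 were called, against 50.9% of all genes (25.6% higher, 25.3% lower). Rag2 gave -1.68 (SE 0.78, adjusted p = 0.0707), the only unadjusted p under 0.05, Dntt -1.45 (SE 0.76) and Rag1 -1.17 (SE 0.75). DESeq2 called 0 here as well and voom 2 (Rag2 and Kit, lower). No gene of the 9 had non-overlapping groups in any of the 3 contrasts, against 9.71% of all genes for untreated p53-/-, 18.3% for treated p53-/- and 13.6% for treated p53+/- lymphomas. The median log2 fold change over the 9 genes was -0.77, -0.80 and -0.75 in that order, beside 0.08 over all genes in the first contrast, -0.04 in the second and -0.001 in the third.

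**Figure D1:**
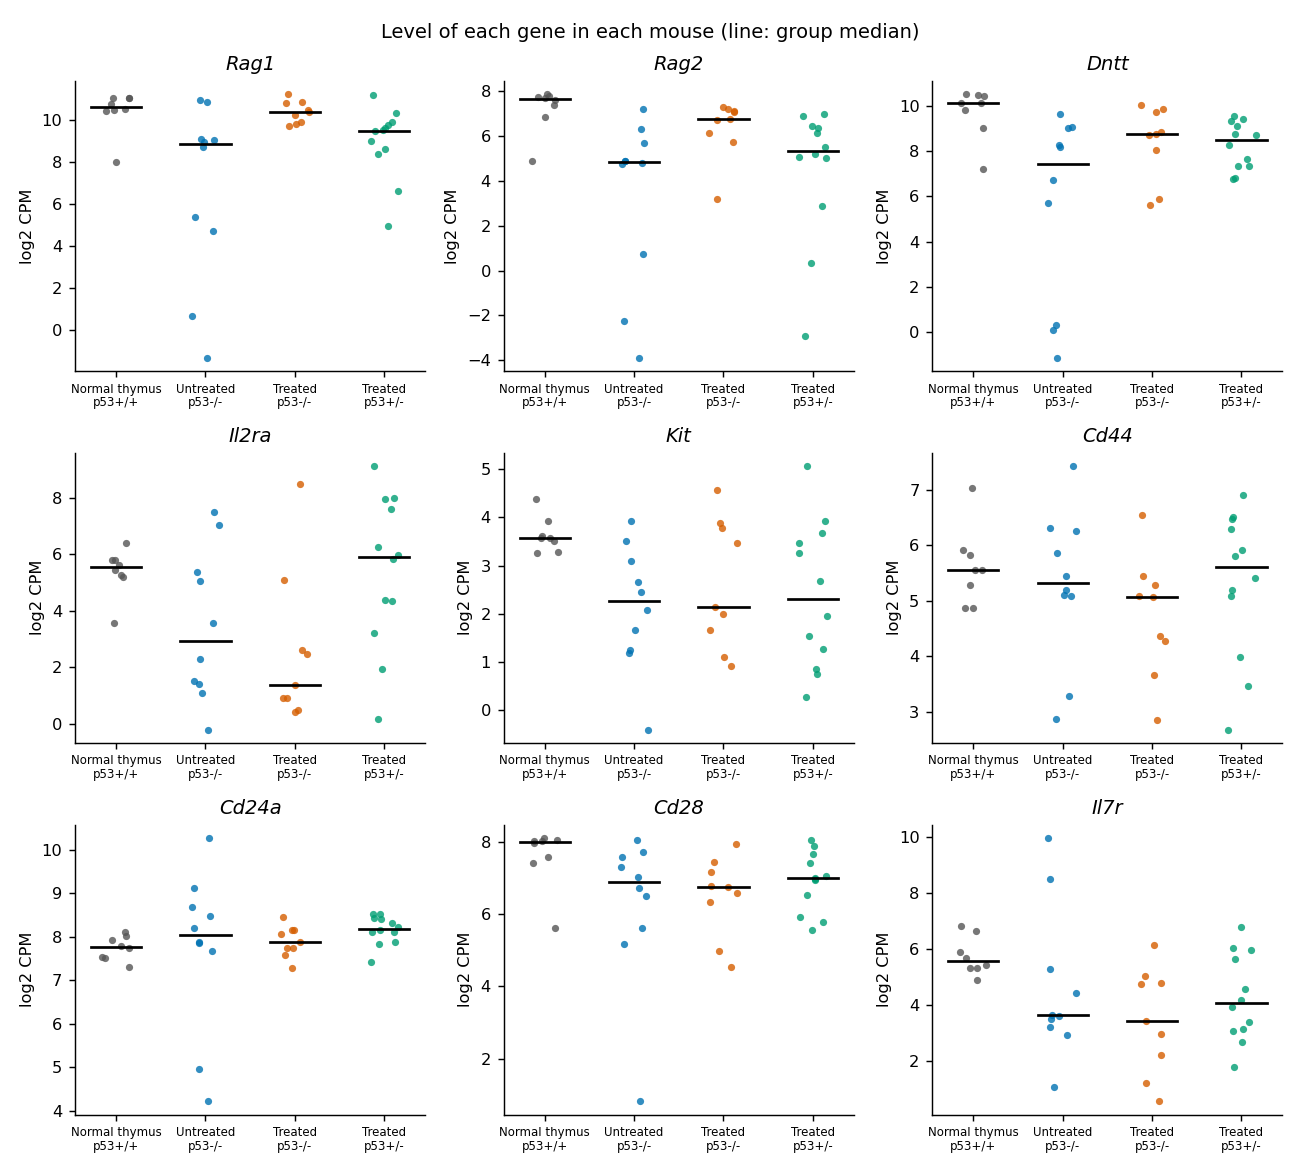
Level of each of the 9 genes in each mouse on a log2 CPM axis (prior count of 2), in p53+/+ normal thymus (8 mice), and in lymphomas of 10 untreated p53-/-, 9 treated p53-/- and 12 treated p53+/- mice. Lines are group medians. Untreated p53-/- tumours spread widest for Rag1, from 0.331 to 1973 CPM, while the low normal point in the Rag1, Rag2, Dntt, Il2ra and Cd28 panels is mouse 387.

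**Figure D2:**
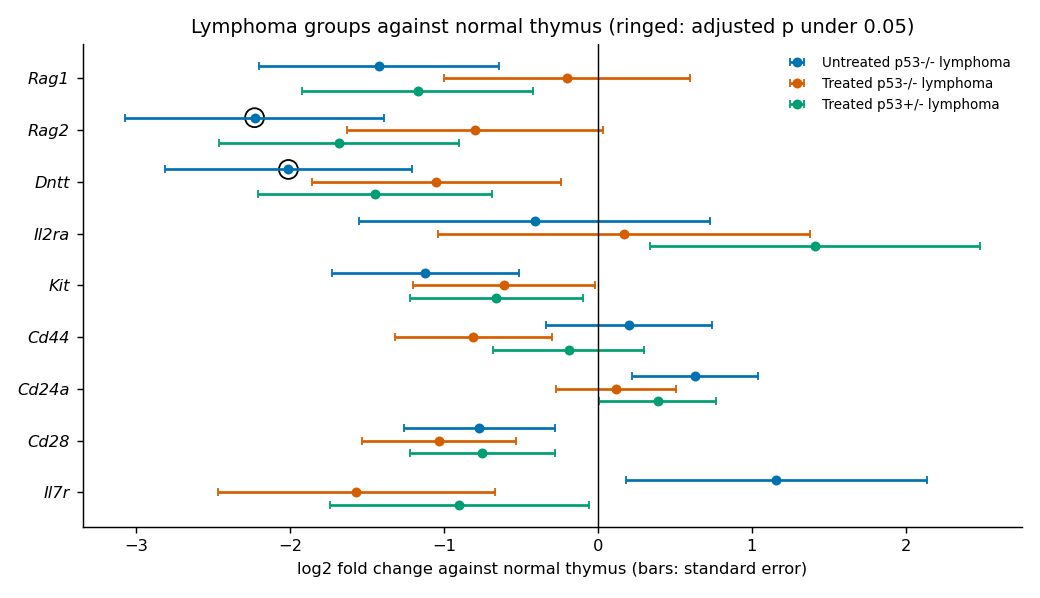
Log2 fold change of each gene against p53+/+ normal thymus in the 3 lymphoma groups, with standard errors as bars. Rings mark an edgeR adjusted p under 0.05, which Rag2 (-2.23) and Dntt (-2.01) reached in untreated p53-/- lymphomas.

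Between the lymphoma groups, edgeR called 0 of 9 genes in each of 3 contrasts, and 0 of 16389 genes overall (0.0% for treated against untreated p53-/-, 0.0% for treated p53+/- against treated p53-/- and 0.0% for treated p53+/- against untreated p53-/-). At an unadjusted p under 0.05 these contrasts held 1917, 864 and 1037 genes. Over all genes DESeq2 called 75, 12 and 3, and voom 39, 1 and 1. Among the 9 genes 1 had an unadjusted p under 0.05: Il7r was at -2.67 on the log2 scale in treated against untreated p53-/- lymphomas (SE 1.21, adjusted p = 0.40), with only tumours 202 and 881 high in the untreated group. In single-biopsy tumours, which leave out those 2, this value was 0.71 (adjusted p = 0.918). The order of group medians for Rag1, Rag2 and Dntt was the same, from normal thymus through treated p53-/- and treated p53+/- to untreated p53-/- lymphomas, and edgeR called no difference between lymphoma groups for them. Voom called Rag2 higher in treated than in untreated p53-/- tumours.

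Il2ra encodes the alpha chain of the IL-2 receptor (CD25), which thymocytes carry before and during beta-chain rearrangement. It measured 11.8, 46.6 and 84.5 CPM (lowest, median, highest) in normal thymus. In untreated p53-/- lymphomas the values were 0.802, 8.29 and 183 CPM (median 4.83 CPM without tumour 881), in treated p53-/- 1.29, 2.51 and 360 CPM, and in treated p53+/- 1.07, 59.8 and 557 CPM. Tumours thus fell on either side of normal: 7 of 31 lay above every normal thymus, 16 below and 8 within. Without mouse 387, the lowest normal (36.3 CPM in the next), 7 lay above and 20 below. The high tumours were 328 at 557, 653 at 360, 903 at 254, 24 at 248, 908 at 195, 899 at 183 and 643 at 133 CPM. Only 1 treated p53-/- tumour was high, and 7 of that group's 9 lay below every normal thymus (8 without mouse 387). The log2 fold changes were -0.41, 0.17 and 1.41 (SE 1.14, 1.21 and 1.07), none called by edgeR. The second was 0.10 without mouse 387. With voom it was -3.07 (adjusted p = 0.0274), the opposite sign. Regulatory T cells also carry CD25, and their 4 markers summed to 6.23 to 767 CPM in lymphomas, with the top value in tumour 202, where Il2ra was 2.61 CPM. Their part in the Il2ra levels was not tested.

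Kit, the stem cell factor receptor of the earliest progenitors, measured 9.5, 11.8 and 20.7 CPM in normal thymus. Lymphoma medians were 4.77 CPM in untreated p53-/-, 4.3 in treated p53-/- and 5.07 in treated p53+/- tumours, with extremes of 0.683 (tumour 562) and 33.6 CPM (tumour 266). Kit was below every normal thymus in 20 of 31 lymphomas and above in 2, tumours 266 and 663. The log2 fold changes of -1.12, -0.61 and -0.66 (SE 0.61, 0.59 and 0.56) were not called by edgeR, and without mouse 387 they were -0.92, -0.35 and -0.40. Voom called Kit lower in all 3 groups (-1.56, -1.09 and -1.4, adjusted p = 0.0101, 0.0476 and 0.00652). Mast cells express Kit strongly, and their 6 markers summed to 7.95 to 24.2 CPM in normal thymus and to a median of 1.95 CPM in lymphomas. Tumour 884 held 411 CPM of these markers with Kit at 12.7 CPM, and tumour 266 held 6.67 CPM. Their part in the Kit levels was not tested.

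Cd44, a hyaluronan receptor of early and activated T cells, had medians of 46.9 CPM in normal thymus and 40.1 (untreated p53-/-), 33.5 (treated p53-/-) and 49.2 CPM (treated p53+/-) in lymphomas. Its range was 29.2 to 132 CPM in normals and 6.35 to 173 CPM in tumours, with 9 of 31 tumours below all normals and 1 (tumour 120) above. The highest normal value is that of mouse 387, and without it (next highest 59.9 CPM) 9 of 31 tumours lay above every normal, of which 5 were treated p53+/-, 3 untreated p53-/- and 1 treated p53-/-. The log2 fold changes of 0.20, -0.81 and -0.19 (SE 0.54, 0.51 and 0.49) were not called, and without mouse 387 they were 0.50, -0.39 and 0.25. The 4 myeloid markers found in the table reached 1779 CPM in mouse 387 against 253 to 682 CPM in the other normals. Their part in the Cd44 levels was not tested.

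Cd24a, which encodes the heat-stable antigen of immature thymocytes, stood out as the gene with the most tumours above normal. Normal thymus measured 157, 216 and 275 CPM, and lymphoma medians were 262 (untreated p53-/-), 236 (treated p53-/-) and 290 CPM (treated p53+/-). It exceeded every normal in 15 of 31 lymphomas and fell below all in 3: 120 at 18.4, 202 at 30.8 and 869 at 154 CPM. The highest value, 1233 CPM, was in tumour 881. The log2 fold changes of 0.63, 0.12 and 0.39 (SE 0.41, 0.39 and 0.38) were not called, and the first was 0.21 without tumour 881. The second was 0.19 without mouse 387.

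Cd28, the costimulatory receptor for CD80 and CD86, measured 49.0, 254 and 276 CPM in normal thymus. Tumour medians were 118, 108 and 127 CPM, and no tumour exceeded the normals. The lowest tumours were 881 at 1.70 CPM and 857 at 23.2 CPM. Log2 fold changes were -0.77, -1.03 and -0.75 (SE 0.49, 0.50 and 0.47), none called by edgeR with all mice. The second was called without tumour 881 (adjusted p = 0.0335), and voom called the first (-1.46, adjusted p = 0.0255). With all normal mice, 3 of 10, 2 of 9 and 1 of 12 tumours lay below every normal thymus. Mouse 387 was the lowest normal, and without it 7 of 10, 7 of 9 and 9 of 12 did.

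Il7r encodes the IL-7 receptor alpha chain, which early and mature thymocytes carry and double-positive cells lose. Normal thymus measured 29.4, 46.7 and 111 CPM. Untreated p53-/- lymphomas measured 2.04, 12.2 and 997 CPM, treated p53-/- 1.39, 10.5 and 70.2 CPM and treated p53+/- 3.35, 16.6 and 109 CPM. Of 31 tumours 22 lay below every normal thymus and 2 above: tumour 202 at 997 CPM and tumour 881 at 360 CPM. Those 2 tumours set the mean of their group, whose log2 fold change against normal was 1.16 (SE 0.98, adjusted p = 0.356) although its median was lower than normal. In single-biopsy tumours the same contrast gave -2.12 (adjusted p = 0.0315). The other groups gave -1.57 and -0.90 (SE 0.90 and 0.84), not called by edgeR, and voom called the first of them lower (-2.4, adjusted p = 0.0151). In bulk tissue, fewer cells of a type and less RNA per cell cannot be told apart, for this gene and all others.

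Across the 31 lymphomas, 36 pairs of the 9 genes were correlated on log2 CPM with two-sided permutation tests (100000 resamples) and adjusted over the pairs, and 8 passed an adjusted p of 0.05, 5 positive and 3 negative. In the 18 single-biopsy tumours alone 1 of 36 passed, Rag1 and Rag2 (r = 0.80, permutation p = 0.00082, adjusted p = 0.0295), and the other 7 pairs did not. Rag1 and Rag2 rose and fell together, with r = 0.85 and rho = 0.88 (p = 1e-05 for each, the smallest these resamples can give, adjusted p = 0.00018 and 0.00036). Without tumours 120 and 202, the farthest from the median of Rag1, r was 0.71, and within groups it was 0.96 (untreated p53-/-), 0.69 (treated p53-/-) and 0.67 (treated p53+/-). Rag1 and Dntt gave r = 0.82 and rho = 0.61 (p = 1e-05 and 0.00043, adjusted p = 0.00018 and 0.00475), with r = 0.54 without the same 2 tumours. Rag2 and Dntt gave r = 0.61 and rho = 0.59 (p = 0.00167 and 0.00066, adjusted p = 0.01 and 0.00475), and r = 0.61 without tumours 24 and 202. Within groups this last pair gave 0.73, 0.54 and 0.25.

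Il7r ran opposite to the recombination genes over all 31 lymphomas, though no such pair passed in single-biopsy tumours alone. Against Rag1 it gave r = -0.61 and rho = -0.60 (permutation p = 0.00074 and 0.00058, adjusted p = 0.00666 and 0.00475), and r = -0.60 without tumours 120 and 202. In single-biopsy tumours r was -0.26 (permutation p = 0.30, adjusted p = 0.675). Within groups r was -0.68 in untreated p53-/-, -0.20 in treated p53-/- and -0.69 in treated p53+/- tumours. Against Rag2, r was -0.57 and rho -0.62 (permutation p = 0.00129 and 0.0003, adjusted p = 0.00929 and 0.00475), with r = -0.37 without tumours 24 and 202. In single-biopsy tumours it was -0.48 (permutation p = 0.0445, adjusted p = 0.277). Against Dntt, r was -0.61 (permutation p = 0.0005, adjusted p = 0.006) and rho -0.44 (p = 0.0128, adjusted p = 0.0526), with r = -0.58 without tumours 120 and 202 and r = -0.14 in single-biopsy tumours (permutation p = 0.574, adjusted p = 0.833). Cd24a passed with Rag1 (r = 0.58, permutation p = 0.00391, adjusted p = 0.019) and with Rag2 (r = 0.56, permutation p = 0.00423, adjusted p = 0.019), but the ranks showed neither (rho = -0.04 and 0.02, permutation p = 0.828 and 0.933, adjusted p = 0.97 for each). The Rag1 pair rested on tumours 120 and 202, without which r was -0.33. By rank 2 further pairs passed that did not by Pearson's r: Rag2 and Cd44 (rho = -0.51, permutation p = 0.00358, adjusted p = 0.0215, against r = -0.37, p = 0.0382, adjusted p = 0.125) and Il2ra and Cd24a (rho = 0.47, permutation p = 0.00779, adjusted p = 0.0401, against r = 0.33, p = 0.0719, adjusted p = 0.173).

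**Figure D3:**
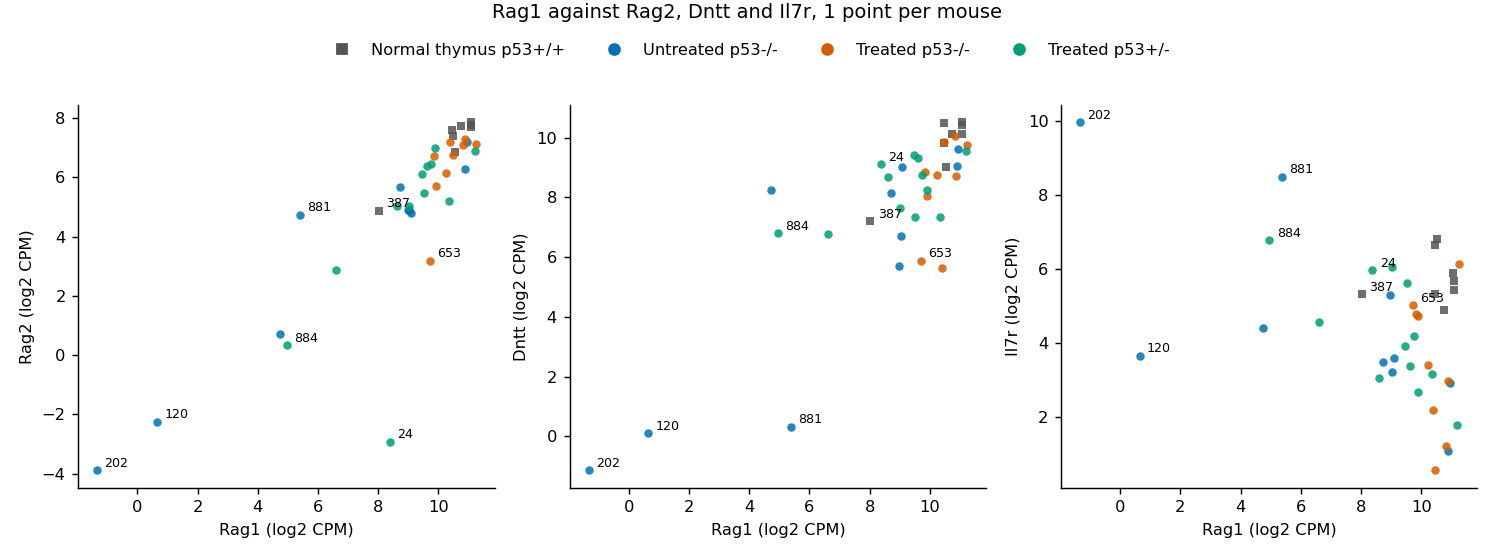
Rag1 against Rag2, Dntt and Il7r on log2 CPM axes, 1 point per mouse, with squares for p53+/+ normal thymus and circles for the 3 lymphoma groups; numbers name the mice discussed. Tumours 120 and 202 lie at the bottom left of the first 2 panels, tumour 24 lies far below the Rag1 and Rag2 trend, and Il7r is highest in tumours 202 and 881.

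Rag2 counts as a percentage of Rag1 counts, a measure for comparing mice that is not corrected for gene length, were 7.74% to 13.6% in normal thymus with a median of 10.9%. Lymphomas had a median of 6.39%. Tumour 24, a treated p53+/- lymphoma, had 5248 Rag1 counts and 1 Rag2 count (0.0191%). Its Rag1 level of 334 CPM lay above that of mouse 387 (262 CPM) and below those of the other p53+/+ normal thymuses (1411 to 2162 CPM). Tumour 653, a treated p53-/- lymphoma, had 16460 and 175 counts (1.06%). Tumour 881 lay on the other side, with 2390 and 1523 counts (63.7%). The overlapping gene B230118H07Rik had 2460 counts in tumour 24 and 2341 in tumour 653. These were 157 and 120 CPM after TMM scaling, against 15.7 to 28.5 CPM in p53+/+ normal thymus. Similar or higher levels occurred in tumours with larger percentages, such as 325 CPM in tumour 857 (7.57%), 249 CPM in tumour 497 (5.74%) and 144 CPM in tumour 663 (10.8%). The part of shared reads in the Rag2 counts was not tested.

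Each gene's most similar genes were the 3 with the highest Pearson r over the 31 lymphomas, among 14867 genes with a mean of at least 1 CPM. For Rag1 these were Arpp21, Cd8b1 (the CD8 beta chain of double-positive and CD8 cells) and Ldhb, with r between 0.90 and 0.93. For Rag2 they were Rag1, Wdr35 and Gm10499 (0.83 to 0.85), and for Dntt Ldhb, Aqp11 and Tnfrsf8, which encodes CD30 (0.88 to 0.89). Il2ra was nearest to Agrn, Gm17764 and Ahcyl2 (0.74 to 0.76), Kit to Gpr161, Dppa2 and D630045J12Rik (0.65 to 0.72) and Cd44 to Cdc14a, Rasa3 and Lgals1 (0.69 to 0.71). Cd24a was nearest to Eef2k, Rapgef3 and the transcription factor gene Myb (0.78 to 0.82). Il7r was nearest to Spef2 and Capsl, which also lie on chromosome 15, and to Extl3 (0.73 to 0.86). Cd28 was nearest to Xkr6, St8sia1 and Ptprc, the CD45 gene (0.79 to 0.80), values that dropped to 0.44 to 0.59 without tumour 881. Lymphoma medians were under 1 CPM for Gpr161 (0.931), Dppa2 (0.0118) and Capsl (0.646), so their r can rest on few tumours. The points share libraries and depth, and these are descriptions.

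The tumours are from a study of aneuploidy, so each gene was also set against the median log2 ratio to normal thymus of the other genes on its chromosome, which measures expression and not DNA copies. Of 9 genes 2 passed an adjusted p of 0.05 over the 9, and in the 18 single-biopsy tumours 1 did, Cd28 (r = 0.78, permutation p = 8e-05, adjusted p = 0.00072). Cd28 rose with chromosome 1 (952 other genes): r = 0.54 and rho = 0.77 (permutation p = 0.00135 and 1e-05, adjusted p = 0.0121 and 9e-05). Without tumours 309 and 894 r was 0.52, without tumour 881 it was 0.70, and within groups it was 0.46 (untreated p53-/-), 0.60 (treated p53-/-) and 0.84 (treated p53+/-). Il2ra ran opposite to chromosome 2 (1176 other genes): r = -0.48 and rho = -0.52 (permutation p = 0.00706 and 0.00301, adjusted p = 0.0318 and 0.0135), with r = -0.54 without tumours 157 and 869 and r = -0.27 in single-biopsy tumours (permutation p = 0.267, adjusted p = 0.582). Within groups r was -0.21, -0.55 and -0.69. Rag1, Rag2 and Cd44 on the same chromosome gave 0.00, -0.02 and -0.32, none past the threshold. For Cd44, r within the untreated p53-/- group was -0.81 (unadjusted permutation p = 0.00407), against 0.26 and -0.25 in the treated groups (unadjusted permutation p = 0.509 and 0.443). Cd24a gave r = -0.05 with chromosome 10 (permutation p = 0.794, adjusted p = 0.983), and 0.74 within treated p53-/- tumours (unadjusted permutation p = 0.0244), against -0.04 and 0.04 in the untreated p53-/- and the treated p53+/- group. Il7r gave r = 0.20 (permutation p = 0.29, adjusted p = 0.522) with chromosome 15, with -0.27, 0.22 and 0.75 within the untreated p53-/-, the treated p53-/- and the treated p53+/- group (unadjusted permutation p = 0.459, 0.607 and 0.00503). The median log2 ratio of chromosome 15 was 0.28, 0.39 and 0.42 in the 3 lymphoma groups, in which 22 of 31 tumours had less Il7r than every normal thymus.

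**Figure D4:**
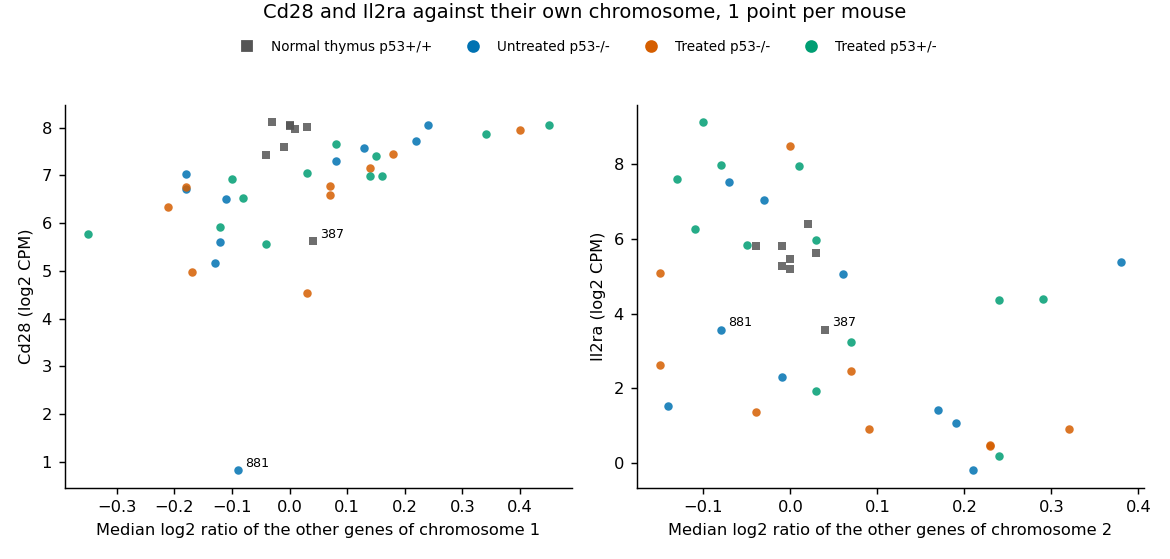
Log2 CPM of Cd28 and Il2ra against the median log2 ratio to normal thymus of the other genes of chromosome 1 or 2, 1 point per mouse. Cd28 rises along the axis among lymphomas (r = 0.54, with tumour 881 far below), and Il2ra falls (r = -0.48).

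The 13 tumours with several biopsies show how far these levels belong to the whole tumour. For Rag1, 97.1% of the variance in log2 CPM lay between tumours rather than among biopsies of 1 tumour, for Rag2 96.5% and for Dntt 95.4% (91.6%, 91.3% and 92.1% without tumour 202). The median over 14850 genes with a mean of at least 1 CPM was 72.8%, and these 3 shares exceeded those of 99.7%, 99.6% and 99.1% of genes. Cd28 followed at 93.4% (83.1% without tumour 881), Cd44 at 92.8%, Il7r at 86.8%, Cd24a at 83.1%, Il2ra at 82.9% and Kit at 74.2%. The shares are descriptions without a test.

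Both the spread between tumours and the spread within them exceeded those of most genes. The SD of tumour means was 3.35 log2 units for Rag1, 2.85 for Rag2 and 3.37 for Dntt, against a gene median of 0.56. The SD within tumours was 0.57, 0.53 and 0.72, also above the gene median of 0.33. Rag1 was most even in tumour 894, with 1220, 1169, 1195 and 1254 CPM in its 4 biopsies. Tumour 202 had 0.213, 0.385, 0.372 and 0.188 CPM of Rag1 and 0 counts of Rag2 in all 4 biopsies, so the low state there was shared by every region sampled.

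Tumour 884, a treated p53+/- lymphoma, was the exception for the recombination genes. Its 4 biopsies measured 53, 5.01, 23.2 and 9.19 CPM of Rag1 (biopsies 2, 5, 6 and 8). Dntt in the same biopsies was 209, 14, 74.8 and 7.0 CPM and Rag2 1.96, 0.264, 0.466 and 1.40 CPM. Biopsy 2 was highest for all 3 genes. The log2 range was 3.37 for Rag1 (19 to 651 counts) and 4.87 for Dntt (35 to 2565 counts), each the widest of the 13 tumours. Rag2 rested on 24, 1, 5 and 7 counts, too few to read a range from. Cd28 was also widest there, at 45.6, 12.9, 71.9 and 17.2 CPM. In the other 12 tumours the Rag1 range stayed under 2 log2 units.

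Il2ra and Il7r differed most among biopsies, with SDs within tumours of 1.27 and 1.03 log2 units, above those of 96.8% and 94.0% of genes. In tumour 869, biopsy 3 had 116 CPM of Il7r against 3.0, 13.4 and 4.58 CPM in biopsies 1, 5 and 7. The same biopsy had 8.58 CPM of Il2ra against 0.196, 0.455 and 0.339 CPM, and 442 CPM of Dntt against 198 to 218 CPM. In tumour 862, biopsy 9 was highest for Il7r, at 20.4 CPM against 1.61 to 5.24 CPM, and for Il2ra, at 196 CPM against 18.6 to 49.5 CPM. That biopsy was also the lowest of the tumour for Rag1, at 566 CPM against 916 to 1010 CPM. In tumour 870, Il7r was 70.6, 20.5, 15.0 and 8.27 CPM in biopsies 1, 3, 5 and 7, and Rag1 was 390, 569, 955 and 1483 CPM, in the opposite order. Other tumours went the other way: in tumour 884 biopsy 2 was highest for both Il7r (140 CPM) and Rag1 (53 CPM), and in tumour 869 biopsy 3, the highest for Il7r, had the second highest Rag1 (1041 CPM, in a range of 629 to 1132 CPM). Ranges over 2 log2 units occurred in 5 of 13 tumours for Il2ra and 4 of 13 for Il7r, against 1 of 13 for Rag1, Rag2, Dntt, Kit, Cd24a and Cd28 each and 0 for Cd44. Some of these ranges include biopsies with 3 counts or fewer, whose values are not resolved. That holds for Il2ra in tumours 202 (1 count in biopsy 7), 857 (0 and 3 counts) and 869 (3 counts in biopsy 1), for Il7r in tumour 857 (0 and 1 counts) and for Rag2 in tumour 884. The Il2ra ranges of tumours 862 and 881 and the Il7r ranges of tumours 862, 869 and 870 do not.

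**Figure D5:**
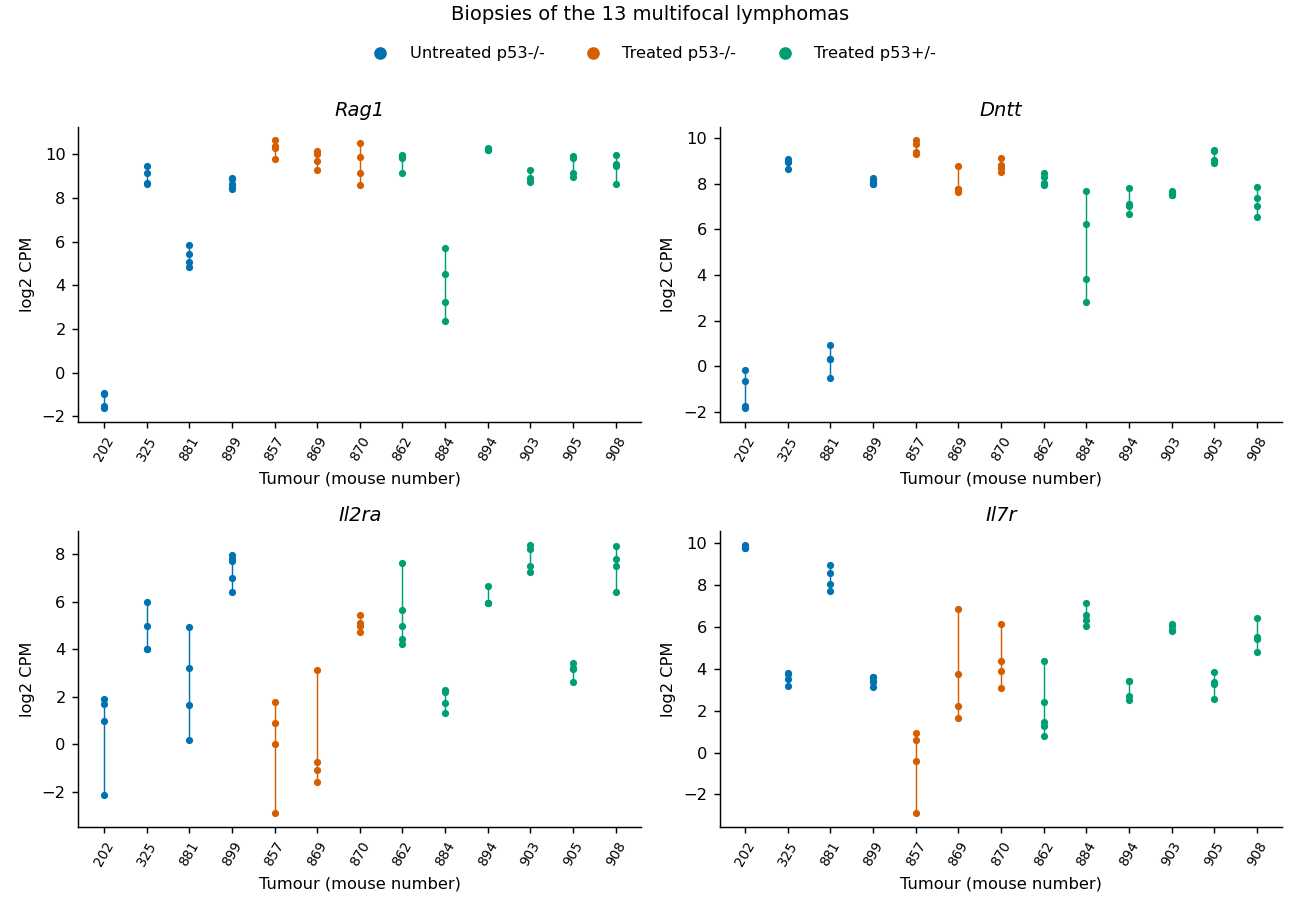
Log2 CPM of Rag1, Dntt, Il2ra and Il7r in every biopsy of the 13 multifocal lymphomas, with a line from the lowest to the highest biopsy of each tumour and colours for the groups. The biopsies of tumour 884 spread widest for Rag1 and Dntt, and those of tumours 862 and 869 spread widely for Il2ra and Il7r.

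Genes of the same pathways were counted from lists in each lymphoma group against normal thymus, with edgeR calls at an adjusted p under 0.05, first for untreated p53-/-, then for treated p53-/- and last for treated p53+/- tumours. Of all genes tested, 23.2%, 25.4% and 25.6% were called higher in these contrasts and 17.5%, 26.7% and 25.3% lower, the shares against which each list's counts stand. Of 12 tested genes for end joining, which seals the cuts, and RAG partners, 2, 6 and 5 were higher and 0, 2 and 0 lower, with list medians of 0.30, 0.46 and 0.25. With voom 4 were higher and 1 lower in untreated p53-/- tumours. Xrcc5, encoding the Ku80 end-binding subunit, rose by 0.85, 1.03 and 1.12 (adjusted p = 0.00113, 5.49e-05 and 1.63e-05), from a normal median of 27.3 CPM to 52.3, 62.9 and 60.9 CPM. Atm, the kinase that senses the breaks, rose by 1.33, 0.95 and 0.67 (adjusted p = 0.000191, 0.00283 and 0.0245). The last call was lost without scaling factors (0.58, adjusted p = 0.0598) and with the deepest biopsy of each tumour (0.52, adjusted p = 0.0669).

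Of 9 regulators of the RAG locus, 4, 5 and 4 were higher and 1 lower in each group, with list medians of 0.66, 0.48 and 0.53. Without scaling factors 2 were higher and 1 lower in each group. Tcf12 and Tcf3, which encode E proteins, rose by 0.71, 0.95 and 0.91 and by 1.05, 0.55 and 0.71. Satb1, a chromatin organiser of thymocytes, fell, with log2 fold changes of -1.52, -1.36 and -1.33, from a normal median of 1391 CPM to 483, 523 and 565 CPM (adjusted p = 0.00189, 0.00457 and 0.00303). Ikzf1, which encodes Ikaros, rose by 0.66, 0.54 and 0.65, with an adjusted p of 0.0429 in treated p53-/- tumours that 7 of the alternatives lost. In untreated p53-/- tumours its call was lost with voom (0.58, adjusted p = 0.0791). Without scaling factors the calls of Ikzf1 were lost in all 3 groups (adjusted p = 0.106, 0.101 and 0.0708), that of Tcf12 in untreated p53-/- (0.0643) and that of Tcf3 in treated p53-/- tumours (0.0588).

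Partners of the cytokine and growth factor receptors fell or were not called: 6, 6 and 7 of 11 tested were lower and 0 higher, with list medians of -0.84, -0.79 and -0.75. Il7, the ligand of the IL-7 receptor, fell, with log2 fold changes of -3.29, -4.15 and -3.89 and Kitl, the ligand of KIT, with -2.7, -2.79 and -2.73. Cish, a STAT5 target that feeds back on cytokine receptors, fell, with log2 fold changes of -2.23, -3.16 and -2.57. Thymic epithelial cells and other stroma are the usual sources of both ligands, and 6 epithelial markers summed to 104 to 1774 CPM in normal thymus (median 1335) and to 2.01 to 352 CPM in lymphomas (median 42.3). The 5 stroma markers had median sums of 375 CPM in normal thymus and of 341, 399 and 368 CPM in the 3 lymphoma groups. The part of epithelium and stroma in the ligands' levels was not tested.

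Of 8 partners of CD28, 2 were lower in each group and 0 higher: its ligands Cd80, with -1.79, -2.23 and -1.98, and Cd86, with -1.86, -1.82 and -1.5 (list medians -0.08, -0.03 and -0.05). A count of 2 of 8 is near the share of all genes called lower. B cells are among the cells that carry these ligands, and the B-lineage markers had a median sum of 107 CPM in normal thymus and of 13.6, 15.4 and 16.2 CPM in the 3 lymphoma groups. The 4 myeloid markers had median sums of 512 CPM in normal thymus and of 554, 500 and 549 CPM in those groups. The part of either cell type in the ligands' levels was not tested. Of 8 early progenitor genes, 2, 5 and 5 were lower and 0 higher, with list medians of 0.20, -1.86 and -1.74. Without tumour 881 the counts in the 2 p53-/- groups were 4 and 8, and without mouse 387 those in the 2 treated groups were 3 each. DESeq2 called 2 in treated p53+/- tumours. Mice 881 and 387 are those with the most B-lineage markers, at 4358 and 1272 CPM, and the part of these cells in the progenitor genes' levels was not tested. Cd34, a progenitor surface protein, fell, with log2 fold changes of -2.31, -1.89 and -2.48 and Flt3, a progenitor growth factor receptor, with -2.11, -2.64 and -1.58.

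Of 8 genes of beta-selection and the double-positive stage, 3, 2 and 3 were lower and 0, 1 and 1 higher, with list medians of -1.41, -0.85 and -1.36. The gene called higher was Ptcra, which encodes the pre-T-cell receptor alpha chain, at 2.42 and 2.2 in the treated p53-/- and p53+/- groups (adjusted p = 0.0335 and 0.0458), named after its values were seen. With voom 7 of 8 were lower in untreated p53-/- tumours, and without the low-count filter 2 were lower and 0 higher in treated p53+/- tumours. Cd4 fell, with log2 fold changes of -2.35, -2.49 and -2.14, from a normal median of 720 CPM to 71.4, 98.4 and 140 CPM, and Cd1d1, an antigen-presenting molecule of double-positive cells, with -1.82, -1.58 and -1.84. Of 7 late thymocyte genes, 3, 6 and 5 were lower and 0 higher, with list medians of -1.17, -2.24 and -1.77. The 3 in untreated p53-/- tumours became 5 with DESeq2, 5 without scaling factors and 6 with voom. Cd69, an early activation marker of selected thymocytes, fell, with log2 fold changes of -2.55, -3.76 and -3.04, Ccr7, the receptor that guides cells to the medulla, with -1.95, -2.63 and -2.06, and Cd5, which tunes receptor signalling, with -1.46, -2.17 and -1.84.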

How the data were processed

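RNA sequencing counts of 81 thymus and lymphoma libraries were used. The authors deposited expected counts per gene from RSEM, not scaled between libraries. Per the submitters' processing notes the tools were CASAVA 1.8, fastp, STAR 2.7.2b and RSEM 1.1.17 with build mm10, and strand settings are not given in the sources used here. Expected counts (14.25% of cells not whole) were rounded and summed over the biopsies of a mouse. GENCODE M21 (GRCm38) gave coordinates and matched 99.63% of gene IDs.

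edgeR 4.0.16 (R 4.3.3) fitted TMM-scaled counts with filterByExpr by group, robust quasi-likelihood and labelled sex, once over normal thymus and lymphomas and once over lymphomas alone. Adjusted p-values are Benjamini-Hochberg over all genes tested, called under 0.05. The code was tested on simulated data. The replicates are separate mice. Correlations used log2 CPM with a prior count of 2. The filter was first set by the design matrix (18900 genes against normal thymus) and, after those results were seen, by group (17843), with the first kept as an alternative. Other alternatives were DESeq2 1.42.0, limma 3.58.1 (voom), other scaling, filters, sex terms and subsets. Leaving out tumours 881 or 202 was chosen after seeing the data. All 9 genes were named, and from each list at most 3 rises and 3 falls called in all 3 contrasts, by mean fold change. The members and lists were chosen with earlier results of these data known. Lck and Ctla4 are in both a marker list and the CD28 list.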

Additional observations from a re-analysis of the deposited data

Results flagged for a closer look

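Single mice or biopsies far from the rest of their set were looked for with Dixon's test at the 95% level, in 27 sets of mice and 117 sets of biopsies. It marked 7 and 8 of them, and chance marks about 1 in 20 of independent sets. Most of the marked sets of mice were marked for mouse 387, so they are not independent. Treated p53+/- tumours were not among the sets of mice.

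Among p53+/+ normal thymuses, mouse 387 was lowest for Rag1 at 262 CPM (the others 1411 to 2162), for Rag2 at 29.2 CPM (115 to 232) and for Dntt at 147 CPM (522 to 1461). It was also lowest for Il2ra at 11.8 CPM (36.3 to 84.5) and for Cd28 at 49.0 CPM (172 to 276). Rag2 in the treated p53-/- tumour 653 was 8.99 CPM, with the other tumours of its group at 52.3 to 159 CPM. Cd28 in the untreated p53-/- tumour 881 was 1.70 CPM, with the others at 35.8 to 264 CPM.

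Among biopsies, tumour 862 had 566 CPM of Rag1 in biopsy 9 (916 to 1010 elsewhere). Tumour 908 had 16.4 CPM of Rag2 in biopsy 9 (47.4 to 58.3 elsewhere). Tumour 869 had 442 CPM of Dntt in biopsy 3 (198 to 218 elsewhere), and tumour 894 had 101 CPM of Il2ra in biopsy 7 (60.7 to 61.6 elsewhere). Kit was 10 CPM in biopsy 7 of tumour 899 (7.26 to 7.77 elsewhere) and 8.04 CPM in biopsy 5 of tumour 905 (5.0 to 5.24 elsewhere). Cd24a was 314 CPM in biopsy 5 of tumour 899 (396 to 429 elsewhere) and 283 CPM in biopsy 5 of tumour 905 (327 to 337 elsewhere).

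The p53+/- normal thymus of mouse 819, which entered no comparison, lay above every p53+/+ normal thymus for Rag1, at 2584 CPM, and for Cd28, at 289 CPM.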

How the results depend on the processing

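Of the members' fold changes against normal thymus under the alternatives, 325 kept their direction and side of the threshold, 9 became called in the same direction, 6 lost the call and 11 changed sign. Of the sign changes 9 were not called under either setting, and 2 were called with the opposite sign: Il7r in untreated p53-/- single-biopsy tumours (adjusted p = 0.0315) and Il2ra in treated p53-/- tumours under voom (adjusted p = 0.0274). Without the sex term Cd44 was -0.03 (untreated p53-/-) and Il2ra -0.09 (treated p53-/-), and with sex read from expression Il2ra was 0.06 and -0.58. Rag1 was 0.06 in treated p53-/- tumours without the 3 mice of doubtful sex, Il7r -2.12 in untreated p53-/- single-biopsy tumours, and Cd44 0.25 in treated p53+/- tumours without mouse 387. Under voom, Cd44 was -0.33, Cd24a -0.09 and Il7r -1.36 (untreated p53-/-), and Il2ra -3.07 (treated p53-/-). Il7r in treated against untreated p53-/- tumours was 0.71 in single-biopsy tumours. The causes were not tested.

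Members called in untreated p53-/- tumours numbered 0 without the low-count filter, 1 without the 3 mice of doubtful sex (Rag2), 1 in single-biopsy tumours (Il7r), 6 under voom and 1 with the low-count filter set by the design matrix (Rag2, with Dntt at -1.89 and an adjusted p of 0.056). In treated p53-/- tumours they numbered 3 under voom and 1 without tumour 881, and in treated p53+/- tumours 2 under voom. In treated against untreated p53-/- tumours voom called 1 (Rag2). With a minimum log2 fold change of 1, 4655 genes were called in untreated p53-/- and 5984 in treated p53+/- tumours. Between lymphoma groups, DESeq2 called 75, 12 and 3 genes and voom 39, 1 and 1. For treated p53+/- against untreated p53-/- tumours 7 were called without the filter and 21 without the sex term. Single-biopsy tumours gave 1 correlated pair (Rag1 and Rag2) and 1 gene correlated with its chromosome (Cd28).

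Without scaling factors the median over all genes in untreated p53-/- tumours moved from 0.082 to -0.048, and the split from 4139 higher and 3131 lower to 3105 and 3551. No member changed direction with that setting. No paired analysis was possible because the replicate numbers name different animals in each group. Levels under about 3 counts per library are not resolved at these depths.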

Other observations

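For the other 7 genes the p53+/- normal thymus lay within the range of the p53+/+ normal thymuses: Rag2 was 203 CPM, Dntt 1027, Il2ra 60.5, Kit 15.8, Cd44 58.4, Cd24a 238 and Il7r 76.4 CPM. Its B-lineage markers summed to 157 CPM.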
